A study of Mus musculus with 12 samples.

Results

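The 9 genes described here are Atf4 and 8 genes tied to the integrated stress response: Atf5, Ddit3, Ddit4, Asns, Chac1, Psat1, Phgdh and Xbp1. They were chosen by name, each is 1 row among the 25897 gene symbols of the deposited count table, and all 9 were among the 14185 genes with enough counts to be tested. They were followed in 12 total RNA libraries from mouse embryonic stem cells (line E14tg2a, strain 129SV) that carry a cRAF-ERT2 construct, a fusion through which adding 4-hydroxytamoxifen (4OHT) switches on the RAF to ERK kinase cascade. The groups were untreated cells and cells given 250 nM 4OHT for 1, 2 or 4 h, with clones a, b and c in each group, so n = 3 per group. These 4 times are those of the sample titles and the series design; the treatment protocol in the sample labels names 0 h and 2 h alone.

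What all 4 groups share limits them as a model. Every library, untreated ones included, came from the construct line grown in serum with LIF and 2 µM Chir99021, an inhibitor of GSK3. For the 24 h before treatment, the cells of every group were kept in serum and LIF with the FGF receptor inhibitor PD173074 at 250 nM. All received 5 mM ethynyl uridine for the last 15 min. No group received 4OHT without the construct and none received vehicle alone, so effects of 4OHT itself and of the activated kinase cannot be told apart.

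In the integrated stress response, 4 kinases sense amino acid shortage, unfolded protein in the endoplasmic reticulum (ER), double-stranded RNA or haem shortage, and each phosphorylates the translation factor eIF2. General protein synthesis then slows while the mRNA of the transcription factor ATF4 is translated more. ATF4 in turn switches on genes for amino acid synthesis and import, for charging of tRNAs and for cell death. XBP1 belongs to a neighbouring branch, the unfolded protein response of the ER, in which the enzyme IRE1 splices Xbp1 mRNA into the form that encodes the active factor. Counts per gene, as used here, report neither eIF2 phosphorylation, nor ATF4 protein, nor Xbp1 splicing.

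Many ATF4 target promoters hold a C/EBP-ATF response element, whose core was searched as TGATGNAA on both strands in the 250 bases before each gene's start (RefSeq, GRCm38.p6). All 9 genes matched the promoter table, with 11 promoters between them. The core was found in 2 of the 9 genes, Asns and Chac1, and in 3.45% of all 32851 promoters. The other motifs searched were the cyclic AMP response element TGACGTCA, the AP-1 site TGANTCA, the ETS site CCGGAAGT, the E-box CACGTG and the EGR site GCGTGGGCG. In this set, AP-1 letters (in 6.75% of all promoters) and ETS letters (in 2.88%) were found in Ddit3 alone, while the other 3 motifs, held by 1.55%, 6.02% and 0.536% of all promoters, were found in none of the 11. The 4 matches are shown because Asns and Chac1 carry the letters of the ATF4 element and Ddit3 the letters of the 2 factor families that ERK is best known to act on. Each stretch is written 5′ to 3′ on the strand of its gene, with the match in capitals.
Chac1, response element, chr2:119351038-119351067, plus strand: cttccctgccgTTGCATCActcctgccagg
Asns, response element, chr6:7693214-7693243, minus strand: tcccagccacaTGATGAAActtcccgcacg
Ddit3, AP-1, chr10:127290543-127290569, plus strand: cgcgcgcaTGACTCActcacctcctcc
Ddit3, ETS, chr10:127290582-127290611, plus strand: gacccaaagccACTTCCGGgtccgagacaa

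The element began 193 bases before the start of Chac1, on the reverse strand, and 23 bases before that of Asns. In Ddit3 the AP-1 letters began 242 bases and the ETS letters 200 bases before the start. A match says that these letters are present, not that a factor binds there. In the wider list of ATF4 target genes examined below, 9 of the 27 with a promoter in the table held the element, among them Atf3, Jdp2 and Pck2. So did 3 of 12 tRNA synthetase genes, 1 of 17 genes of the ER chaperone list (Herpud1) and 0 of 10 genes for eIF2 kinases and regulators.

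**Figure D1:**
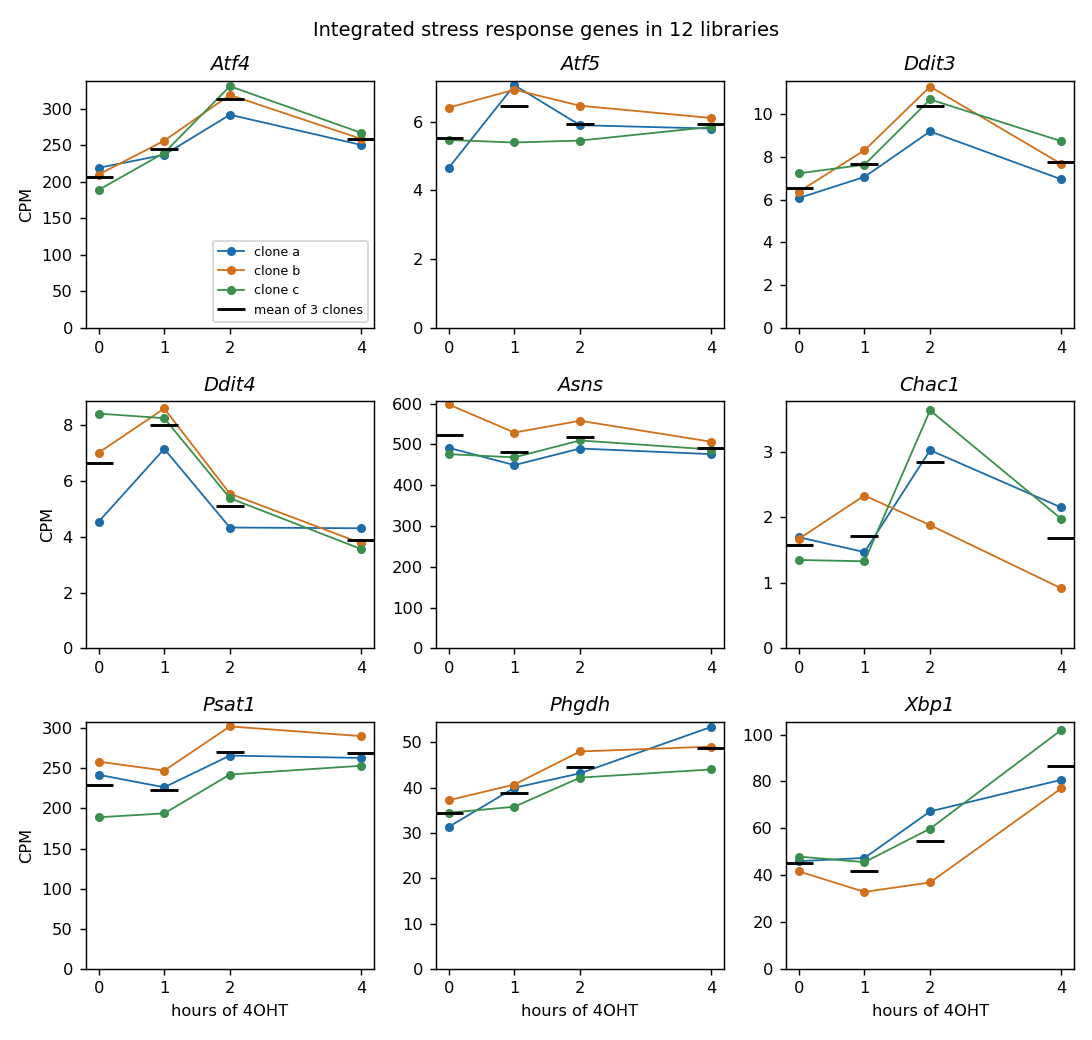
TMM-scaled CPM of each of the 9 genes against hours of 4OHT, with 1 line per clone and a black bar at the mean of 3 clones. Each panel has its own linear axis from 0. Atf4 and Ddit3 peak at 2 h in all 3 clones, Phgdh and Xbp1 are highest at 4 h, Ddit4 is lowest at 4 h, and Asns stays between 449 and 598 CPM.

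Total counts were 24213641 to 31435301 per library, so 1 count was worth 0.0318 to 0.0413 CPM, the count scaled by TMM to a common library total. The 4 genes fixed as a check of ERK activation, Egr1, Fos, Spry4 and Dusp6, were higher at 1, 2 and 4 h, with median log2 changes of 3.91, 3.99 and 3.12. Their mean log2 change at 4 h was 2.10 in clone a, 3.67 in clone b and 3.12 in clone c. The 8 embryonic stem cell markers were detected in every library and summed to 4287 to 5496 CPM. That sum hides opposite changes, since 2 of the 8 were higher and 2 lower at 4 h (edgeR, adjusted p below 0.05). Nanog had 18014 to 21226 counts untreated and 7169 to 8201 at 4 h, while Utf1 had 488 to 918 and 1818 to 1957. Of 8 feeder fibroblast markers 3 passed the filter on low counts, with Vim, which is not specific to fibroblasts, making up most of their sum, while Col1a2, Col3a1, Postn, Dcn and Lum had at most 6 counts in any library. Their sum was 164 to 291 CPM in untreated cells and 287 to 564 CPM at 4 h. Of 8 trophoblast markers 6 passed, with Elf5 and Hand1 at 0 to 12 counts, and the sum of all 8 was 45.3 to 50.1 CPM in untreated cells and 60.1 to 156 CPM at 4 h. Cdx2 had 0 to 2 counts untreated and 120 to 968 at 4 h. Krt18 had 264 to 312 and 486 to 2052, and Eomes 81 to 90 and 270 to 483. Of the 6 that passed, 5 had a log2 change above 0 at 4 h, and the lowest, −0.42, was that of Tfap2c. The 8 primitive endoderm markers summed to 707 to 984 CPM in untreated cells and 679 to 982 CPM at 4 h. Lama1 and Sparc made up most of that sum, while Gata6, Gata4, Sox17, Foxa2, Dab2 and Pdgfra had at most 130 counts in any library. Of the 2-cell-like markers none passed (sums up to 0.410 CPM). The part of these marker shifts in the 4 h results below was not tested, and in bulk RNA fewer cells of a type and less RNA per cell cannot be told apart.

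Levels between genes were compared per kilobase of exon (CPM per kb, union of exons). In untreated cells Asns stood highest at 191 ± 24.2 (SD, n = 3), followed by Atf4 at 87.3 ± 6.57 and Psat1 at 54.0 ± 8.53. Xbp1 (13.9 ± 1.00) and Phgdh (13.8 ± 1.18) were neighbours whose clones overlapped. Ddit3 (3.83 ± 0.350) and Ddit4 (3.79 ± 1.12) overlapped too, as did Ddit4 and Atf5 (2.77 ± 0.440). Per kb of the longest transcript, Ddit3 (6.77, clones 6.27 to 7.46) stood above Ddit4 (3.79, clones 2.58 to 4.79) without overlap. Chac1 was lowest at 0.961 ± 0.118, resting on 39 to 55 counts per untreated library. The first 3 places and the last kept their order at all 4 times, while at 4 h Xbp1 (26.7 ± 4.14) stood above Phgdh (19.6 ± 1.89) with no overlap between their clones and Ddit4 (2.21 ± 0.219) stood below Atf5 (2.97 ± 0.0829).

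**Figure D2:**
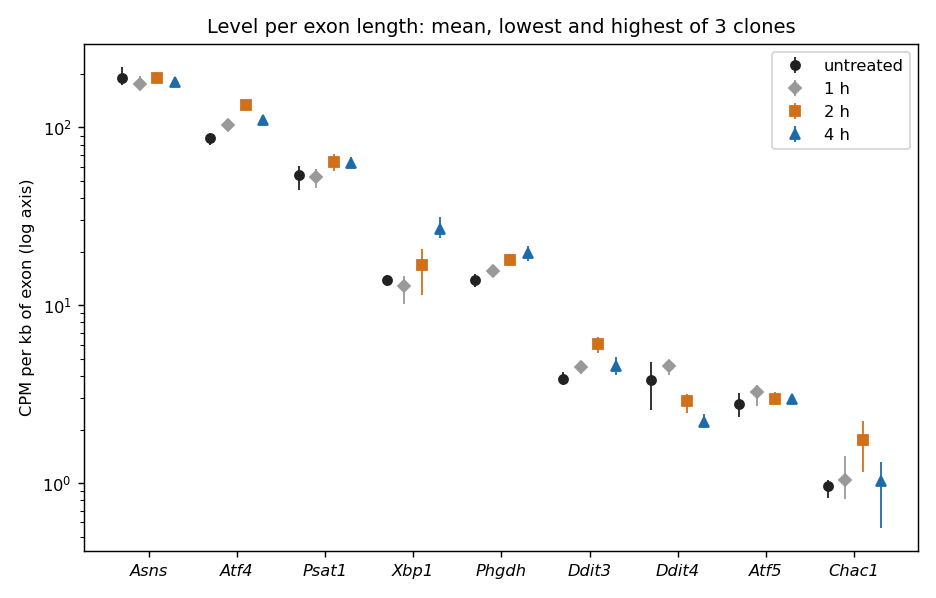
CPM per kb of exon on a log axis for the 9 genes, ordered by their untreated level, with 1 marker per time for the mean of 3 clones and lines from the lowest to the highest clone. Levels span from 0.961 for Chac1 to 191 for Asns in untreated cells, and at 4 h Ddit4 lies below Atf5, its lower neighbour in untreated cells.

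Of the 9 genes, 3 were higher at 2 h (Atf4, Ddit3 and Phgdh) and none lower, against 9.56% of all tested genes higher and 6.64% lower (edgeR quasi-likelihood test, Benjamini-Hochberg adjusted p below 0.05 over all tested genes). At 4 h, 3 were higher (Atf4, Phgdh and Xbp1) and 1 lower (Ddit4), against 18.0% and 15.1% of all genes, so the 4 h counts stand close to the background shares. At 1 h none passed, against 0.0775% of all genes higher and 0% lower. In that comparison 1 of the 9, Atf4, had an unadjusted p below 0.05, and DESeq2 and limma-voom called none. In a test over the 3 treated times together, 5 of 9 passed (Atf4, Ddit3, Ddit4, Phgdh and Xbp1), against 27.4% of all genes. The median log2 change of the 9 was 0.18, 0.27 and 0.23 at 1, 2 and 4 h, while that of all tested genes was −0.02 at each time.

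Libraries of 1 clone deviated together, so the fit with clone as a block is given wherever it changes a call. It added Atf4 at 1 h and Psat1 at 2 h and at 4 h, which made 1, 4 and 4 members higher, against 5.41%, 20.6% and 26.2% of all genes. The blocked fit called 0, 0 and 1 member lower (1.58%, 20.0% and 25.7% of all genes), and 6 of 9 over the 3 times together (56.8%). Counted by libraries alone, 1, 4 and 3 members lay wholly above the untreated group at 1, 2 and 4 h (10.9%, 19.1% and 22.8% of all genes), Chac1 being the added one at 2 h. At those times 0, 0 and 1 lay wholly below it (8.99%, 18.2% and 21.9%).

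**Figure D3:**
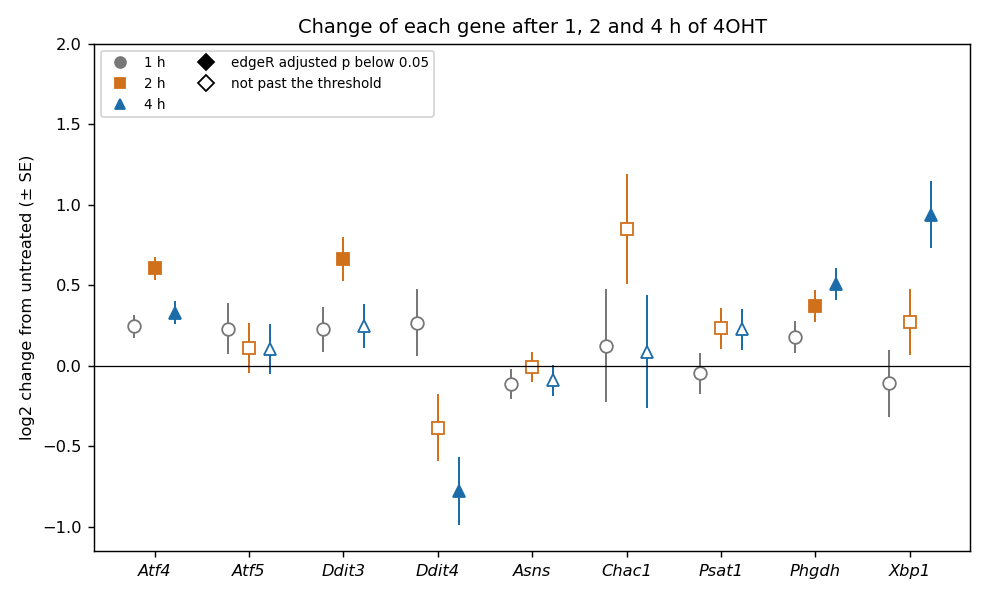
Log2 change from untreated ± SE (edgeR, all 12 libraries) for each gene at 1 h (circles), 2 h (squares) and 4 h (triangles). Filled symbols passed an adjusted p of 0.05 and open ones did not. The filled points are Atf4, Ddit3 and Phgdh at 2 h and Atf4, Ddit4, Phgdh and Xbp1 at 4 h.

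Atf4 (chromosome 15, 80255184 to 80257541, plus strand, GRCm38), the central transcription factor of the response, rose with a peak at 2 h. Its levels in clones a, b and c were 219, 210 and 189 CPM untreated, 237, 256 and 240 at 1 h, 292, 319 and 331 at 2 h, and 250, 259 and 267 at 4 h. Every treated library lay above every untreated one, and the 2 h libraries lay above all others. The log2 change was 0.61 ± 0.07 at 2 h (1.52-fold, adjusted p = 0.0016) and 0.33 ± 0.07 at 4 h (adjusted p = 0.0055). At 1 h it was 0.25 ± 0.07 (adjusted p = 0.281, and 0.0473 with clone as a block). Among all tested genes, the size of the 2 h change stood at percentile 82.9.

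The fall of Atf4 between 2 h and 4 h passed narrowly, with a log2 change of −0.28 ± 0.07 (adjusted p = 0.0495), and was the 1 call among the 9 genes between those times, against 1.41% of all genes lower and 3.27% higher. With the block 2 members were lower and 1 higher (9.98% and 12% of all genes), and 3 lay wholly below and 1 wholly above the 2 h group (10.6% and 11.4%). The call of Atf4 was lost with DESeq2's size factors in edgeR (adjusted p = 0.0518), without the filter on low counts (0.0579), with only the 2 groups compared (0.133), and without any 1 of the 12 libraries other than clones a and c untreated and clone a at 2 h (9 libraries, adjusted p up to 0.159 without clone c at 2 h). With clone as a block it was 0.0127. Between 1 h and 2 h Atf4 was 0.36 ± 0.07 higher (adjusted p = 0.0736, and 0.0088 with the block). In that comparison none of the 9 passed, against 0.0564% of all genes higher and 0.00705% lower, 4 had an unadjusted p below 0.05, DESeq2 called 1, limma-voom called none, and the block called 3 higher and 1 lower (7.13% and 5.46% of all genes). At 2 h, 3 members lay wholly above and 1 wholly below the 1 h group (13.1% and 11.0%).

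The 2 h and 4 h calls of Atf4 held without each of the 12 libraries in turn (adjusted p up to 0.0127 at 2 h and 0.0306 at 4 h). Without all 4 libraries of clone c, the clone with the highest change, they were 0.217 and 0.135, with log2 changes of 0.51 and 0.25. The fit without clone c called 1 of 14295 genes at 2 h and 919 at 4 h, against 2298 and 4691 of 14185 with all libraries. Leaving out clone b gave 0.056 at 4 h. By clone, the 2 h change of Atf4 was 0.41 in a, 0.60 in b and 0.81 in c. The genes whose changes over the 9 treated libraries lay nearest those of Atf4 were Tgif1, Nufip2 and Taf1a, with root mean square differences of 0.0696, 0.0739 and 0.0885 on the log2 scale among 8395 genes.

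Atf5 (chromosome 7, 44812256 to 44816658, minus strand), a relative of ATF4 whose mRNA is also translated more when eIF2 is phosphorylated, showed no change past the threshold. It stood at 4.66, 6.41 and 5.47 CPM untreated, 7.06, 6.93 and 5.39 at 1 h, 5.90, 6.46 and 5.45 at 2 h, and 5.80, 6.11 and 5.85 at 4 h. The groups overlapped at every time. The log2 changes were 0.23 ± 0.16, 0.11 ± 0.16 and 0.11 ± 0.16 (adjusted p = 0.629, 0.652 and 0.641). Its exons overlap those of Il4i1 and of Nup62 on the opposite strand, by 82 bases each, and Nup62 had 0 counts over the 12 libraries. Since the strand setting of the counting is not given in the sources used here, the counts of Atf5 (142 to 196 per library) are uncertain.

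Ddit3 (chromosome 10, 127290774 to 127296288, plus strand), which encodes CHOP, a transcription factor of stress-induced cell death, also peaked at 2 h in all 3 clones. Its levels were 6.08, 6.37 and 7.23 CPM untreated, 7.06, 8.31 and 7.64 at 1 h, 9.19, 11.3 and 10.7 at 2 h, and 6.95, 7.67 and 8.73 at 4 h. The 3 libraries of 2 h were the 3 highest of the 12. Its log2 change at 2 h was 0.66 ± 0.14 (1.58-fold, adjusted p = 0.0139), and 0.23 ± 0.14 at 1 h and 0.25 ± 0.14 at 4 h did not pass (adjusted p = 0.577 and 0.192). From 2 h to 4 h it changed by −0.42 ± 0.14 (adjusted p = 0.106, 0.0133 with the block and 0.0447 with DESeq2). Between 1 h and 2 h it was 0.44 ± 0.14 higher (adjusted p = 0.176, and 0.0226 with the block).

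The 2 h call of Ddit3 was lost without clone b untreated (adjusted p = 0.0527), clone b at 2 h (0.0658) or clone c at 2 h (0.0629). Leaving out the 4 libraries of clone b gave 0.155, and leaving out those of clone c 0.244. The gene rests on 160 to 330 counts per library, and 68 bases of its exons lie opposite Mars, which has 88911 counts over the 12 libraries against 2673 for Ddit3. The nearest genes by pattern were Tgif2 (0.121), Phf23 (0.123) and Pank4 (0.129).

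Chac1 (chromosome 2, 119351229 to 119354381, plus strand), which encodes an enzyme that degrades glutathione and is among the most ATF4-responsive genes known, was scarce. Its levels were 1.70, 1.67 and 1.35 CPM untreated, 1.47, 2.33 and 1.33 at 1 h, 3.03, 1.88 and 3.63 at 2 h, and 2.15, 0.92 and 1.98 at 4 h. All 3 libraries of 2 h lay above the untreated ones, with clone b only just above. The log2 change at 2 h was 0.85 ± 0.34 (adjusted p = 0.104). The changes at 1 h and 4 h, 0.13 ± 0.35 and 0.09 ± 0.35, were smaller than their errors. The gene rests on 27 to 102 counts per library.

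Asns (chromosome 6, 7675169 to 7693254, minus strand), asparagine synthetase, is a classical ATF4 target and carries the element shown above, but did not pass in any comparison. Its levels were 492, 598 and 476 CPM untreated, 449, 529 and 468 at 1 h, 490, 558 and 510 at 2 h, and 476, 507 and 488 at 4 h. The groups overlapped at every time, and clone b was the highest library of each group. At 1, 2 and 4 h its log2 change was −0.11 ± 0.09, −0.01 ± 0.09 and −0.09 ± 0.09 (adjusted p = 0.711, 0.964 and 0.486). The gene rests on 11007 to 16315 counts per library.

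Phgdh (chromosome 3, 98313170 to 98339990, minus strand) and Psat1 encode the first enzymes of serine synthesis, phosphoglycerate dehydrogenase and phosphoserine aminotransferase. Phgdh stood at 31.3, 37.2 and 34.5 CPM untreated, 40.0, 40.7 and 35.8 at 1 h, 43.2, 48.0 and 42.2 at 2 h, and 53.4, 49.1 and 44.0 at 4 h. The 2 h and 4 h libraries all lay above the untreated ones. The log2 change was 0.37 ± 0.10 at 2 h (adjusted p = 0.0296) and 0.51 ± 0.10 at 4 h (1.42-fold, adjusted p = 0.0032).

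The 4 h call of Phgdh held without each of the 12 libraries in turn (adjusted p up to 0.014). The 2 h call was lost without clone a, b or c untreated (adjusted p = 0.087, 0.0525 and 0.0667) or clone b or c at 2 h (0.131 and 0.0784), with upper quartile scaling (0.0814) and with only the 2 groups compared (0.059). Leaving out all of clone a, b or c gave 0.0701, 0.16 and 0.262 at 2 h and at most 0.0465 at 4 h. A search of the annotated transcripts found 21 other genes with sequence at least 90% identical to Phgdh, mostly processed pseudogenes and up to 98.7% identical, so its counts depend on a treatment of multiply mapped reads that is not given in the sources used here. The nearest genes by pattern were Mllt1 (0.0695), Wdr55 (0.0705) and Uqcrc1 (0.0804).

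Psat1 (chromosome 19, 15904678 to 15947337, minus strand) stood at 242, 258 and 189 CPM untreated, 226, 247 and 194 at 1 h, 266, 302 and 242 at 2 h, and 263, 290 and 253 at 4 h. Clone c was lowest and clone b highest in each group, and the groups overlapped. Each clone was higher at 2 h and at 4 h than its own untreated culture. At both times the log2 change was 0.23 ± 0.13 and did not pass (adjusted p = 0.218 and 0.195), whereas with clone as a block the adjusted p was 0.0071 and 0.0048. Between 1 h and 2 h it was 0.28 ± 0.13 higher (adjusted p = 0.309, and 0.0131 with the block). A pseudogene 90.9% identical to Psat1 makes its counts uncertain as well.

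Ddit4 (chromosome 10, 59949669 to 59951834, minus strand), which encodes REDD1, a stress-induced inhibitor of the growth kinase mTORC1, was the 1 gene of the 9 that fell. Its levels were 4.53, 7.01 and 8.41 CPM untreated, 7.14, 8.59 and 8.24 at 1 h, 4.33, 5.54 and 5.38 at 2 h, and 4.30, 3.77 and 3.56 at 4 h. The 4 h libraries lay below all others, although clone a was already low when untreated. The log2 change at 4 h was −0.78 ± 0.21 (0.584-fold, adjusted p = 0.0166), made up of −0.07 in clone a, −0.88 in b and −1.22 in c. At 1 h and 2 h it was 0.27 ± 0.21 and −0.38 ± 0.21 (adjusted p = 0.687 and 0.217), and between them −0.65 ± 0.21 (adjusted p = 0.18, and 0.0359 with the block).

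The 4 h call of Ddit4 was lost without clone c untreated (adjusted p = 0.0663, log2 change −0.57), clone b at 4 h (0.0529) or clone c at 4 h (0.0639), and with only the 2 groups compared (0.0585). Leaving out all of clone b gave 0.151, and all of clone c 0.272 with a log2 change of −0.51. It rests on 90 to 243 counts per library. The nearest genes by pattern were Lama5 (0.0892), Lzts3 (0.132) and Apbb1 (0.153).

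Xbp1 (chromosome 11, 5520659 to 5525893, plus strand) showed the largest change of the 9 at 4 h. Its levels were 46.0, 41.6 and 47.9 CPM untreated, 47.4, 32.8 and 45.6 at 1 h, 67.2, 36.9 and 59.8 at 2 h, and 80.7, 77.1 and 102 at 4 h. The 4 h libraries lay above all others. At 2 h the clones divided, with a and c above and b below its own untreated culture. At 4 h the log2 change was 0.94 ± 0.21 (1.92-fold, adjusted p = 0.0059), against 0.27 ± 0.21 at 2 h (adjusted p = 0.368). From 2 h to 4 h it was 0.66 ± 0.21 higher (adjusted p = 0.0902, 0.0036 with the block and 0.0265 with DESeq2).

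The 4 h call of Xbp1 held without each of the 12 libraries in turn (adjusted p up to 0.0271) and was lost without all 4 of clone c (0.112, log2 change 0.85). The nearest genes by pattern were Klhl22 (0.137), Smpdl3b (0.171) and Arl6ip5 (0.187). Xbp1 rose at the time when the fibroblast marker sum, mostly Vim, and the trophoblast marker sum rose. Among the trophoblast markers Cdx2, Krt18 and Eomes rose, while Tfap2c did not. The part of these marker genes in the rise of Xbp1 was not tested.

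Upstream of Atf4, 14 genes for eIF2 kinases, eIF2, its exchange factor eIF2B and the phosphatase subunits were tested. At 2 h 2 were higher and 1 lower, at 4 h 4 were higher and 1 lower, and at 1 h none passed (2 with an unadjusted p below 0.05), beside 9.56% higher and 6.64% lower of all genes at 2 h and 18.0% and 15.1% at 4 h. With the block, 6 were higher and 1 lower at 2 h, beside 20.6% and 20.0% of all genes. The blocked fit called 7 higher and 2 lower at 4 h (26.2% and 25.7%) and 3 and 0 at 1 h (5.41% and 1.58%). Their median log2 changes were 0.15 at 2 h and 0.09 at 4 h. The 3 calls of 2 h became 0 without clone a or b untreated or clone b or c at 2 h, and 1 without clone a or b at 1 h or clone c at 4 h. The 5 calls of 4 h became 2 without clone a untreated or clone b or c at 4 h, and 3 without clone a or c at 1 h or clone c at 2 h. The genes for 2 sensor kinases did not pass at any time, Eif2ak3 (PERK, the ER sensor) at 38.1 ± 0.766 CPM untreated and 36.8 ± 2.42 at 4 h and Eif2ak4 (GCN2, the amino acid sensor) at 52.1 ± 2.60 and 49.9 ± 1.54, with adjusted p of at least 0.503 for both against untreated. Eif2ak2 (PKR, the sensor of double-stranded RNA) fell from 48.4 ± 2.02 CPM to 40.7 ± 0.978 at 2 h and 40.2 ± 0.768 at 4 h (log2 changes −0.25 ± 0.08 and −0.27 ± 0.08, adjusted p = 0.0473 and 0.0217). The remaining kinase gene, Eif2ak1, was not called against untreated in the fit without the block, with 1369 to 1852 counts untreated and 1385 to 1570 at 4 h.

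Of the named genes that rose among these, Eif2b1, Eif2b2 and Eif2s1 encode the translation factors that the phosphorylation acts on. Eif2b2 rose from 44.7 ± 5.34 CPM to 57.8 ± 4.83 at 2 h and 62.8 ± 2.95 at 4 h (0.49 ± 0.09 at 4 h, adjusted p = 0.003). Eif2b1 was 0.19 ± 0.05 higher at 2 h and 0.16 ± 0.05 at 4 h (adjusted p = 0.0344 and 0.0363). Eif2s1, the phosphorylated subunit itself, was 0.26 ± 0.07 higher at 4 h (adjusted p = 0.0144), and Gcn1l1, an activator of GCN2, 0.31 ± 0.10 (adjusted p = 0.0385). Eif2b4 was 0.24 ± 0.09 higher at 4 h (adjusted p = 0.0502, and 0.0128 with the block). Ppp1r15a, which encodes GADD34, the stress-induced subunit that dephosphorylates eIF2, stood at 25.5 ± 2.29 CPM untreated and 30.5 ± 3.69 at 1 h (0.26 ± 0.12, adjusted p = 0.437, and 0.0354 with the block).

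Other textbook targets of ATF4 passed in both directions, in shares near those of all genes in the fit without the block. Of 33 listed, 30 were tested; 4 were higher and 1 lower at 2 h (9.56% and 6.64% of all genes), and 6 higher and 5 lower at 4 h (18.0% and 15.1%). With the block these became 11 and 4 at 2 h, beside 20.6% and 20.0% of all genes. At 4 h they became 10 and 6, beside 26.2% and 25.7%. At 1 h none passed, with 4 at an unadjusted p below 0.05 and 1 called by DESeq2. The block called 3 higher at 1 h, beside 5.41% of all genes. The median log2 changes were 0.09, 0.14 and 0.07 at 1, 2 and 4 h. The 5 calls of 2 h became 2 without any 1 untreated library, clone c at 1 h, clone b or c at 2 h or clone c at 4 h, and 3 without clone a at 1 h.

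Those that rose included Mthfd2, Slc3a2, Eif4ebp1 and Sesn2. Mthfd2, the folate enzyme that uses serine-derived carbon, went from 77.1, 76.3 and 68.8 CPM untreated to 102, 121 and 113 at 2 h and 95.2, 119 and 116 at 4 h. The groups did not overlap, and the log2 changes were 0.60 ± 0.10 and 0.57 ± 0.10 (adjusted p = 0.0071 and 0.0018). Slc3a2, the heavy chain shared by several amino acid transporters, went from 157 ± 8.81 CPM to 223 ± 8.92 at 4 h (0.51 ± 0.07, adjusted p = 0.00043). Eif4ebp1, the translation repressor 4E-BP1, was 0.50 ± 0.15 higher at 2 h and 0.78 ± 0.15 at 4 h (adjusted p = 0.0442 and 0.0031).

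Sesn2, the leucine sensor sestrin 2 and an inhibitor of mTORC1, was higher in every clone at 1 h and 2 h. It stood at 85.9, 99.5 and 96.5 CPM untreated, 125, 155 and 134 at 1 h, 129, 165 and 164 at 2 h, and 122, 96.6 and 112 at 4 h. The 1 h and 2 h libraries all lay above the untreated ones, while at 4 h clone b was back at its untreated level. The log2 change was 0.56 ± 0.12 at 1 h (adjusted p = 0.214, and 0.0167 with the block), 0.70 ± 0.12 at 2 h (adjusted p = 0.0083) and 0.23 ± 0.12 at 4 h (adjusted p = 0.167).

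Of the 5 that fell at 4 h, the one with the largest change was Jdp2, a transcriptional repressor of the AP-1 family, at 7.66 ± 1.57 CPM untreated and 2.62 ± 1.19 at 4 h (−1.55 ± 0.32, adjusted p = 0.0043). Gpt2, a mitochondrial alanine aminotransferase, went from 72.8, 71.4 and 72.0 CPM untreated to 45.5, 19.2 and 29.2 at 4 h (−1.20 ± 0.25, adjusted p = 0.0042). Cth, which makes cysteine from cystathionine, went from 297 ± 14.5 to 220 ± 11.0 CPM (−0.43 ± 0.06, adjusted p = 0.00081). Neither group overlapped the untreated one. Trib3, a pseudokinase often used as a marker of the response, stood at 15.4 ± 3.56 CPM untreated and 11.2 ± 4.39 at 4 h (−0.46 ± 0.30, adjusted p = 0.255). Atf3, a stress-induced transcription factor, stood at 1.04 ± 0.128 and 0.768 ± 0.218 CPM (−0.42 ± 0.30, adjusted p = 0.31).

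The 20 cytoplasmic aminoacyl-tRNA synthetases, which load tRNAs with amino acids and many of which are ATF4 targets, had 7 members higher at 2 h and 7 at 4 h, none lower at either time, and with clone as a block 14 higher at each. At 2 h, 7 of 20 stands beside 9.56% of all genes and the blocked 14 of 20 beside 20.6%, and at 4 h beside 18.0% and 26.2%. The other 13 did not pass, and all 20 log2 changes lay between −0.03 and 0.43 at 2 h and between −0.06 and 0.50 at 4 h. At 1 h none passed (3 with an unadjusted p below 0.05). The block called 2 higher at 1 h, beside 5.41% of all genes. The median log2 changes were 0.21 at 2 h and 0.18 at 4 h. With upper quartile scaling, which moved the median of all genes at 2 h from −0.02 to −0.11, the calls were 1 at 2 h and 4 at 4 h. The 7 calls of 2 h became 0 without clone a untreated or clone b or c at 2 h, 1 without clone b untreated, and 2 without clone c untreated, any 1 library of 1 h or clone c at 4 h. The 7 calls of 4 h became 2 without clone b or c at 4 h.

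Farsa, a subunit of the phenylalanine enzyme, had the smallest p over the treated times, going from 130 ± 11.8 CPM to 174 ± 15.0 at 2 h and 183 ± 17.2 at 4 h (0.43 ± 0.09 and 0.50 ± 0.09, adjusted p = 0.0167 and 0.0027). Hars, Kars and Nars were 0.21 to 0.23 higher at both 2 h and 4 h, with adjusted p of at most 0.0452. Rars and Tars passed at 4 h, at 0.21 ± 0.06 and 0.24 ± 0.06 (adjusted p = 0.0176 and 0.0117). Exons of Hars overlap Hars2 on the opposite strand.

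**Figure D4:**
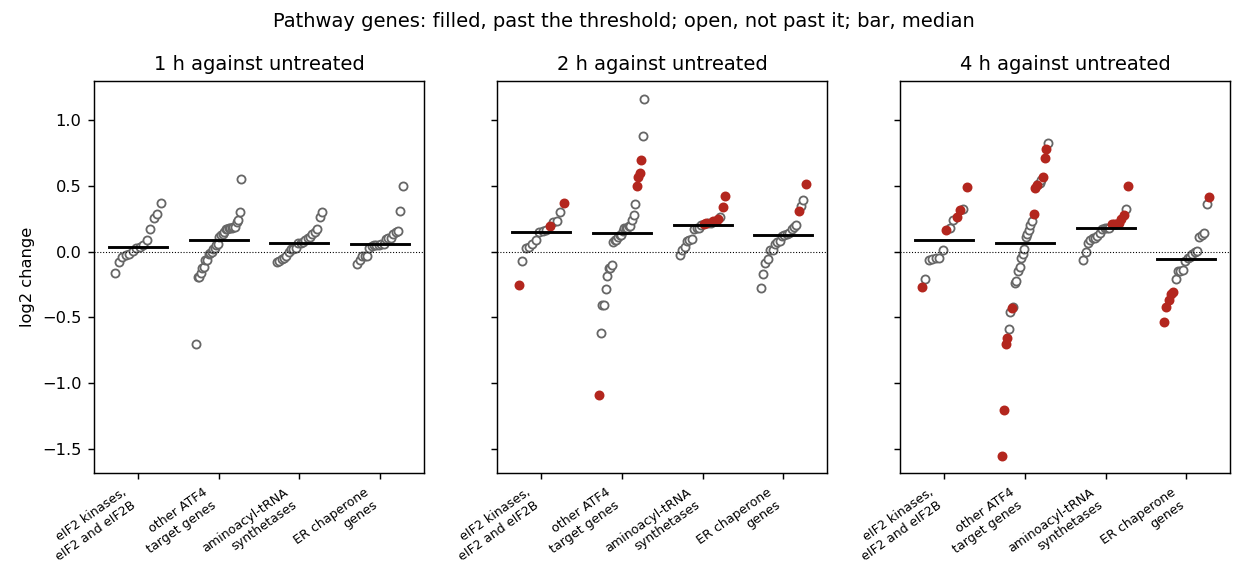
Log2 change from untreated of each tested gene in 4 pathway lists at 1, 2 and 4 h, with filled points past an adjusted p of 0.05 and a bar at the median. Synthetases lie mostly above 0 at 2 h and 4 h (medians 0.21 and 0.18), other ATF4 targets spread to both sides, and the median of the ER chaperone list goes from 0.12 at 2 h to −0.06 at 4 h.

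Several ER chaperone genes, which XBP1 and ATF6 are known to switch on, were lower at 4 h, the time at which Xbp1 was higher. The 20 genes tested under this name include some that are not chaperones, among them Atf6, Herpud1 and Sel1l. Of the 20, 2 were higher at 2 h (Creld2 and Herpud1) and none lower, against 9.56% and 6.64% of all genes. At 4 h 1 was higher (Atf6, the factor itself) and 5 lower (Hspa5, Dnajc3, Sdf2l1, Manf and Sel1l), against 18.0% and 15.1%. With the block these were 7 and 1 at 2 h, against 20.6% and 20.0% of all genes. At 4 h they were 3 and 9 with the block, against 26.2% and 25.7%. Between 2 h and 4 h none rose and 4 fell (10 with the block), against 1.41% of all genes lower (9.98% with the block). The median log2 change was 0.12 at 2 h and −0.06 at 4 h. At 1 h none passed, with 1 at an unadjusted p below 0.05. The block called 1 higher at 1 h, against 5.41% of all genes. The 2 h calls of the list were 0 without clone b untreated or clone b or c at 2 h, 1 without clone a untreated, and 4 without clone a at 2 h or clone a or b at 4 h.

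Hspa5, which encodes BiP, the main ER chaperone, stood at 772, 735 and 722 CPM untreated, 758, 816 and 816 at 1 h, 792, 845 and 809 at 2 h, and 632, 597 and 549 at 4 h. The 4 h libraries lay below all others. The log2 change at 4 h was −0.33 ± 0.07 against untreated (adjusted p = 0.004) and −0.46 ± 0.07 against 2 h (adjusted p = 0.0067). Manf, a secreted ER stress protein, went from 98.2 ± 4.40 to 79.3 ± 0.930 CPM at 4 h (−0.31 ± 0.06, adjusted p = 0.0028), with exons that overlap Dcaf1.

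At 4 h Dnajc3, a co-chaperone of BiP, fell by 0.54 ± 0.12 (adjusted p = 0.0075), and Sel1l, of the ER degradation machinery, fell by 0.42 ± 0.09 (adjusted p = 0.0057). Herpud1, of the same machinery and also known as an ATF4 target, rose and returned, at 11.8 ± 0.839 CPM untreated, 16.8 ± 0.755 at 2 h (0.52 ± 0.12, adjusted p = 0.0176) and 11.4 ± 1.45 at 4 h. Calr, the chaperone calreticulin, fell between 2 h and 4 h by 0.22 ± 0.05 (adjusted p = 0.0446). Against untreated its 4 h change was −0.14 ± 0.05 (adjusted p = 0.0604, and 0.0195 with the block).

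**Figure D5:**
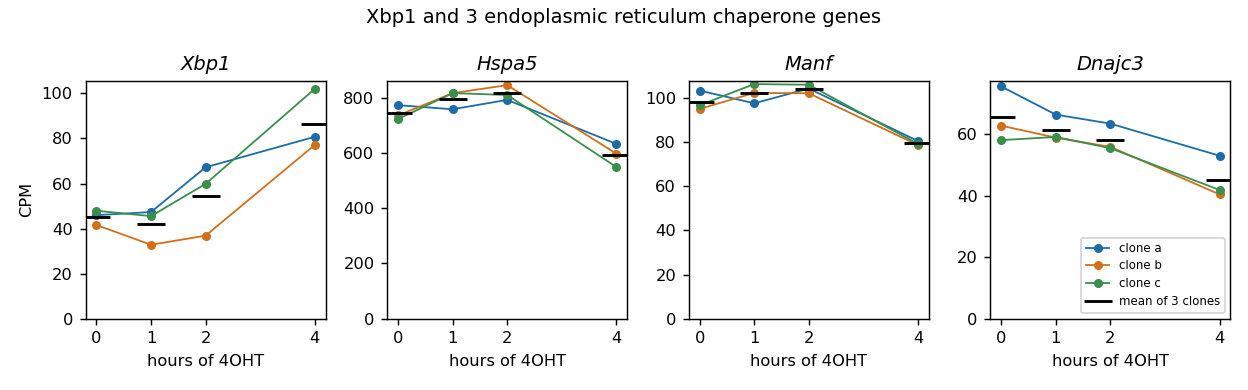
CPM of Xbp1 and of the ER chaperone genes Hspa5, Manf and Dnajc3 against hours of 4OHT, 1 line per clone and a black bar at the mean of 3, each axis from 0. At 4 h the 3 Xbp1 libraries (77.1 to 102 CPM) lie above all earlier ones, and the 3 Hspa5 libraries (549 to 632 CPM) lie below all earlier ones.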

How the data were processed

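The authors deposited raw read counts per gene symbol, 1 column per library. STAR, featureCounts, DESeq and mm10 are named, per the submitters' processing notes. No source used here gives versions, annotation, strand setting or the treatment of multiply mapped reads. Ribosomal RNA was depleted before library preparation, per the labels' protocols.

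The members and gene lists were chosen with earlier results of these data known. Counts were filtered (filterByExpr, minimum count 10, minimum total 15; 14185 tested, 11712 not) and TMM-scaled. edgeR's quasi-likelihood test (group as the 1 factor, all 12 libraries, 2-sided) was used, with Benjamini-Hochberg adjustment over all tested genes at 0.05 (edgeR 4.0.16, limma 3.58.1, DESeq2 1.42.0, R 4.3.3). The SE, an approximation, was taken from the change and its F statistic as |log2 change|/√F. CPM uses the TMM-scaled sum of tested genes as library total. The code was tested on simulated data.

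Same-lettered libraries are 1 clone. Their deviations from group means correlated (r 0.184 to 0.684 over 18 pairs, against −0.568 to −0.024 over 36 pairs of different clones), so clone pairs the libraries, and the blocked fit stands beside results it changes. No library is a copy: the 12 pairs within groups had chi-square values of 18.5 to 103 per degree of freedom. Replicates are clones of 1 line. In the fit without the block, changes were judged against the spread between clones. In the blocked fit they were judged against the spread left after differences between clones were taken out.

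All 9 members were named, as were the 6 genes of each pathway list with the smallest p over the treated times, plus Sesn2, Trib3, Atf3, Ppp1r15a, Hspa5, Eif2ak3 and Eif2ak4. Jdp2, Creld2, Sdf2l1, Atf6 and Eif2ak1 were added after their values were seen. Likeness was taken over genes with a mean of at least 10 CPM, with a prior count of 2. Coordinates are from GENCODE M21 (GRCm38), counted from 1. Alternatives were RLE and upper quartile scaling, no filter, DESeq2, limma-voom, the clone block, fits of 2 groups, and leaving out each library and each clone. For levels per length the alternative was the longest transcript in place of the union of exons.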

Additional observations from a re-analysis of the deposited data

How the results depend on the processing

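Counts per library were lowest for Chac1 (27 to 102), Ddit4 (90 to 243) and Atf5 (142 to 196), and the part of depth in their errors was not tested. With clone as a replicate block, members called were 1 higher at 1 h, 3 higher and 1 lower between 1 h and 2 h, and 1 higher and 2 lower between 2 h and 4 h; with DESeq2 they were 1 higher between 1 h and 2 h, and 1 higher and 2 lower between 2 h and 4 h. The 1 member lower between 2 h and 4 h became 0 with RLE, with no filter and with only the 2 groups compared, and the 1 lower at 4 h became 0 with only 2 groups. The cause was not tested, except that fits of 2 groups have fewer libraries. The block called 3 eIF2 genes at 1 h, 7 at 2 h and 9 at 4 h, 3 ATF4 targets at 1 h and 15 at 2 h, 2 synthetases at 1 h and 14 at 2 h and at 4 h, and 1, 8 and 12 ER chaperone genes at the 3 times. Of all 14185 tested genes it called 992, 5754 and 7374 at these times. DESeq2 called 1 ATF4 target at 1 h and 8 at 2 h, 11 synthetases at 2 h and 5 ER chaperone genes at 2 h. Upper quartile scaling called 1 and 3 eIF2 genes and 1 and 4 synthetases at 2 h and 4 h. No filter called 1 eIF2 gene at 2 h. With only the 2 groups compared, eIF2 calls were 0 at 2 h and 1 at 4 h, and synthetase calls 1 at each. Leaving out 1 library, or all of 1 clone, gave 0 to 3 members higher and 0 to 1 lower at 2 h, 1 to 3 higher and 0 to 1 lower at 4 h, 0 to 1 higher between 1 h and 2 h, 0 to 1 lower between 2 h and 4 h, and 0 to 5 by the test over all times. The lists ranged from 0 to 3 and 0 to 5 (eIF2), 0 to 7 and 2 to 11 (ATF4 targets), 0 to 8 and 0 to 8 (synthetases) and 0 to 4 and 0 to 7 (ER chaperone genes) at 2 h and 4 h. Without all libraries of clone c, no member passed at 2 h and only Phgdh at 4 h, in a fit that called 1 of 14295 genes at 2 h and 919 at 4 h, against 2298 and 4691 with all libraries. Sign changes were confined to log2 changes that had not passed: Asns at 2 h became 0.0027 with RLE, 0.0071 with no filter, 0.0027 with DESeq2 and 0.00040 with limma-voom, Chac1 at 4 h −0.011 with limma-voom, and between 2 h and 4 h Atf5 became 0.011 and Psat1 0.0076 with upper quartile scaling. On leaving libraries out, Asns ranged from −0.070 to 0.10 at 2 h and −0.15 to 0.018 at 4 h, Atf5 from −0.0054 to 0.23 at 4 h and −0.063 to 0.065 between 2 h and 4 h, Chac1 from −0.17 to 0.28 at 1 h and −0.14 to 0.44 at 4 h, Psat1 from −0.17 to 0.047 at 1 h and −0.080 to 0.085 between 2 h and 4 h, and Xbp1 from −0.21 to 0.034 at 1 h. The blocked fit changed no other member call than those given beside the results.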
